A study of Mus musculus with 6 samples.

Results

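Genes of endosomal sorting were followed in bEnd.3 cells, a mouse brain endothelial line transformed with polyoma middle T antigen, after knockdown of Npc1 by a short hairpin RNA (shRNA). Members were chosen by symbol, as every gene of the deposited table named Vps, Snx or Chmp followed by a digit, with a mean of at least 1 FPKM (fragments scaled to transcript length and to the mapped fragments of each library) over the 6 libraries. The rule kept 71 of 74 such genes, namely 35 of 35 Vps, 26 of 29 Snx and 10 of 10 Chmp genes. The deposited list held 15917 genes, of which 10400 reached the same minimum and were tested. One group held 3 libraries of cells with a control hairpin (shControl, replicates 1, 2 and 3), which another label tag calls WT, and the other 3 libraries with a hairpin against Npc1 (shNpc1, replicates 4, 5 and 6). Both groups share the transformed line, and separate cultures, clones, the hairpin sequence and the duration are not named in the labels. The p-values therefore reflect the spread among these 6 libraries, part or all of which may be technical.

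Endosomes receive membrane proteins from the cell surface and from the Golgi and decide whether each is recycled, returned to the Golgi or degraded in the lysosome. Retromer and retriever gather cargo for recycling, sorting nexins bind phosphoinositides through a PX domain and bend the membrane into tubules, ESCRT complexes pull ubiquitinated cargo into inner vesicles, and the tethers CORVET and HOPS fuse early and late endosomes with their targets. Npc1 acts at the end of this route, as the membrane protein that exports cholesterol from lysosomes. The comparison asked which of these transcripts differ when Npc1 is reduced.

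Npc1 (gene 18145) itself was at 6.31, 6.63 and 7.27 FPKM in the control libraries and 0.45, 1.20 and 0.97 FPKM in the knockdown libraries, 13.0% ± 5.70 of the control mean (SD, n = 3). A two-sided exact permutation test gave p = 0.1, which is the minimum for 3 libraries against 3, and limma gave a log2 fold change of -2.07 with an adjusted p of 0.000723. Of 17 endothelial markers listed, 15 had a mean of at least 1 FPKM, led by Pecam1 at 521 FPKM, while Cldn5 was listed at 0 in all 3 controls and Vwf stayed under 1 FPKM. Their summed level was 2046 to 2077 FPKM in the controls and 1943 to 2019 in the knockdown, and none of the markers of pericytes or smooth muscle, fibroblasts, astrocytes, neurons, oligodendrocytes, microglia or macrophages or epithelium reached a mean of 1 FPKM. In bulk RNA, a change in the share of cells and a change in RNA per cell cannot be told apart. The summed FPKM of a library was 661950 to 757026; the values keep no read counts, and the depth is unknown.

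Knockdown replicate 4 stood apart from the other libraries along GC content, taken from the longest coding transcript of each gene. Among all tested genes of low GC content (the bottom tertile, under 46.7%) its log2 level lay at a median of -0.37 relative to the mean of knockdown replicates 5 and 6, and among those of high GC content (over 53.1%) at 0.20. The members showed the same split, with a median of -0.48 over the 25 members of low GC content, all 25 of them below 0, and 0.28 over the 20 of high GC content, 19 of them above 0. Knockdown replicate 4 was the lowest of the 3 knockdown libraries for 33 members, whose median GC content was 43.8%, and the highest for 32, whose median was 54.2%. Where a call of a named gene ends or is made without this library, or after a spline on GC content was subtracted from every library, that value is given too. Median shifts from the control mean were also compared, as high GC genes minus low GC genes. These differences were 0.70, 0.05 and 0.20 in knockdown replicates 4, 5 and 6. In control replicates 1, 2 and 3 they were -0.09, 0.08 and 0.007. The median shift of high GC genes lay above 0 in all 3 knockdown libraries (0.29, 0.06 and 0.11).

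**Figure D1:**
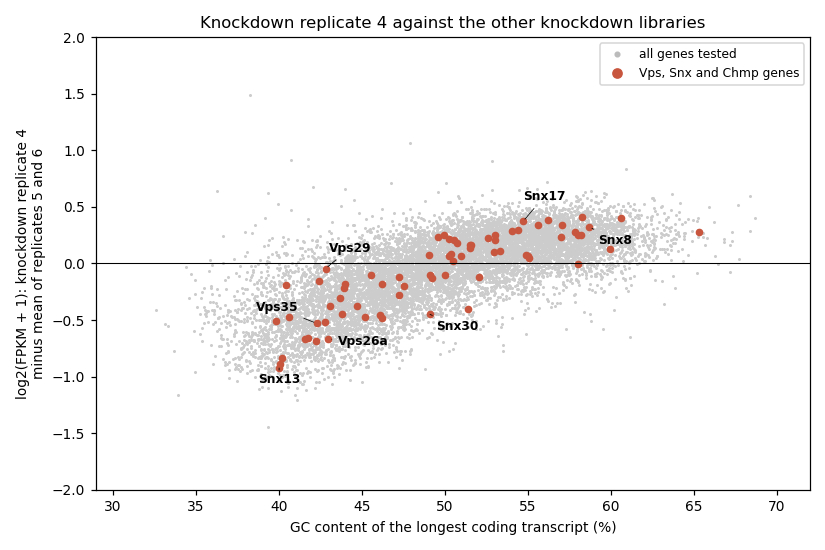
Difference in log2(FPKM + 1) between knockdown replicate 4 and the mean of knockdown replicates 5 and 6 (y axis) against the GC content of the longest coding transcript in percent (x axis), for tested genes (grey, 10243 within the axes and 4 outside) and the 71 members (red). All 25 members under 46.7% GC lie below 0 and 19 of the 20 over 53.1% above it.

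Across the 71 members, 14 rose and 1 fell past an adjusted p of 0.05 in limma (empirical Bayes with an intensity trend on log2(FPKM + 1), Benjamini-Hochberg over all genes tested). The share that rose was 19.7%, beside 12.0% of all 10400 tested genes, and the share that fell 1.41%, beside 5.89%. All 3 knockdown values lay above all 3 control values for 24 members, or 33.8% beside 27.4% of tested genes, and below them for 4, or 5.63% beside 16.1%. For a called gene such separation is no separate support, since the call rests on the same values. The median log2 fold change was 0.13 over the members and 0.026 over all tested genes. After the GC correction these medians were 0.070 and 0.0015. Leaving out control replicate 1, 2 or 3 left 2, 4 and 1 members higher and 0 lower in each case. Leaving out knockdown replicate 4, 5 or 6 left 21, 14 and 5 higher and 3, 4 and 0 lower. Each of these fits rests on 5 libraries. The share of all tested genes called in each of these fits was not counted, so a change particular to the members cannot be read from them.

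Of the 8 genes grouped as HOPS and CORVET, which include Vps33b although it works outside HOPS, 4 rose. Of the 2 genes specific to retriever 2 rose, of the 4 of retromer 1, of the 19 of ESCRT 2, of the 26 sorting nexins 4 and of the 12 other Vps genes 1. As shares these were 50%, 100%, 25%, 10.5%, 15.4% and 8.33%, beside 12.0% of all tested genes; no test compared the complexes, and the highest shares come from the smallest groups. The gene that fell was Chmp4c of ESCRT. The authors' deposited table gives 11 members higher and 2 lower at q under 0.05, beside 9.54% and 7.67% of tested genes; 12 calls were shared, which is 80.0% of the limma calls and 92.3% of the authors'. Snx5 was called only in the authors' deposited table, and Vps37c, Vps11 and Snx3 only by limma.

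**Figure D2:**
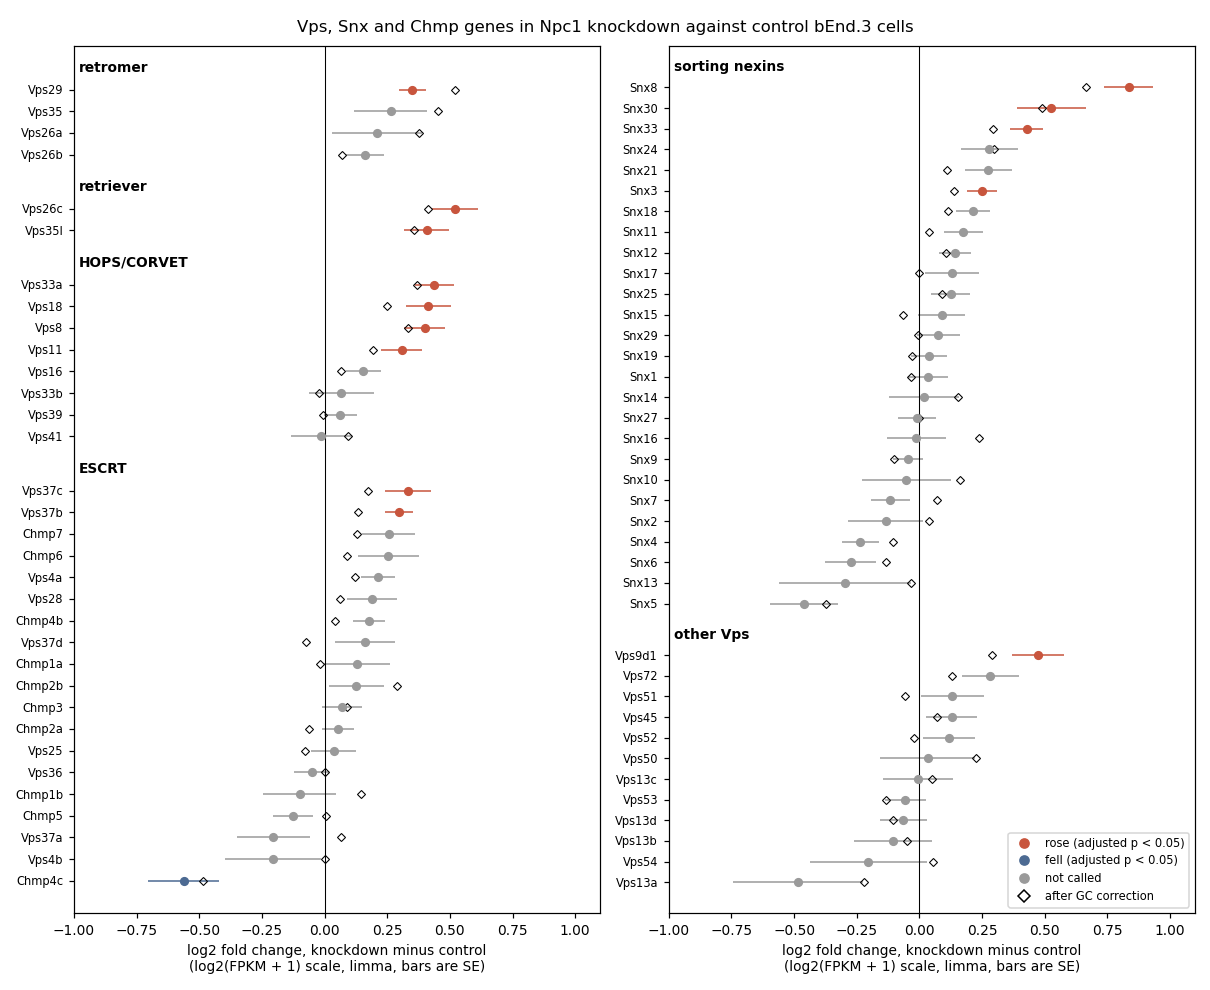
Log2 fold change of knockdown minus control on the log2(FPKM + 1) scale (x axis) for each of the 71 members (y axis), grouped by complex, with standard errors from limma; red rose, blue fell, grey did not pass, and open diamonds show the value after the GC correction. Snx8 has the highest value, 0.84, and Chmp4c the lowest, -0.56.

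HOPS and CORVET share the core subunits Vps11, Vps16, Vps18 and Vps33a, and of these 4 genes 3 rose. Vps33a, the Sec1/Munc18 protein that assembles SNAREs in both tethers, was at 16.2, 15.9 and 16.3 FPKM in the controls and 24.6, 21.1 and 21.1 FPKM in the knockdown, where each library lay above every control. Its log2 fold change was 0.44 (SE 0.08, limma adjusted p = 0.0122). Vps18, a core subunit with a RING domain, went from 7.84, 7.66 and 8.09 to 12.2, 9.99 and 10.3 FPKM (1.38-fold, log2 0.41, SE 0.09, limma adjusted p = 0.0229). Vps11, another RING subunit of the core, went from 11.9, 12.6 and 12.7 to 17.2, 15.2 and 14.4 FPKM (log2 0.31, SE 0.08, limma adjusted p = 0.0454). For all 3 the groups did not overlap, and knockdown replicate 4 was the highest library. Vps16, the core subunit that binds Vps33a, also had its 3 knockdown libraries (26.6, 23.3 and 24.0 FPKM) above its controls (21.6, 21.6 and 22.8), but did not pass (log2 0.15, limma adjusted p = 0.174).

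The subunits that tell the tethers apart differed from one another. Vps8, which binds Rab5 as part of CORVET, rose from 3.36, 3.46 and 3.63 to 5.09, 5.22 and 4.45 FPKM (ratio 1.41, log2 0.40, SE 0.08, limma adjusted p = 0.0201). The HOPS subunits Vps39 and Vps41, which link it to Rab7 and Arl8, had log2 fold changes of 0.06 and -0.01 (adjusted p = 0.508 and 0.949 in limma). Vps39 was at 12.3, 12.3 and 12.4 FPKM in the controls and 13.1, 12.3 and 13.5 in the knockdown, with overlapping groups. Vps41 was at 14.5, 12.9 and 13.8 against 11.3, 15.8 and 14.1 FPKM, knockdown replicate 4 being the lowest of the 6 libraries. Vps33b, the Vps33a relative that works with Vipas39 outside HOPS, also overlapped (log2 0.07, limma adjusted p = 0.727). Whether Vps8 and the HOPS subunits differ in their response was not tested.

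The calls of the tether genes varied with the library left out, and whether this differs from all tested genes was not counted. The count of 4 was 0 without control replicate 1, 2 or 3, 2 without knockdown replicate 6 and 3 without knockdown replicate 5, and stayed 4 without knockdown replicate 4 and after the GC correction. Without control replicates 1, 2 and 3 in turn the limma adjusted p was 0.0637, 0.0614 and 0.0634 for Vps33a (0.00192 to 0.0637 over all 16 alternatives), 0.0981, 0.0940 and 0.0887 for Vps18 (0.00664 to 0.0981) and 0.0977, 0.0832 and 0.0787 for Vps8 (0.0143 to 0.0977). Vps18 also lost its call without knockdown replicate 6 (adjusted p = 0.0686). For Vps11 the values were 0.175, 0.129 and 0.136, and 0.0509 and 0.0759 without knockdown replicates 5 and 6; it also missed the threshold with no filter on low values (0.0668), after trimmed mean of M values scaling (0.0672), after median centring (0.0959) and with quantiles (0.0832), the range being 0.0227 to 0.175.

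Among 26 partners of these tethers, 7 (26.9%, beside 12.0% of all tested genes) rose and 0 fell in the same limma fit; their median log2 fold change was 0.21. Tgfbrap1, the second subunit that is particular to CORVET, went from 5.32, 5.25 and 5.46 to 6.54, 7.09 and 6.93 FPKM (log2 0.31, limma adjusted p = 0.0259). Arl8a, a small GTPase that recruits HOPS to lysosomes, rose 1.56-fold, from 52.2, 54.4 and 52.3 to 82.3, 81.6 and 84.0 FPKM (log2 0.63, SE 0.05, limma adjusted p = 0.00111), and passed under all 16 alternatives. Rab7, the GTPase of late endosomes, rose 1.21-fold, and Arl8b, the close relative of Arl8a, 1.29-fold. Plekhm1, an adaptor between Rab7, Arl8 and HOPS, rose 1.35-fold, and the remaining 2 were Rilpl1, a relative of the Rab7 effector Rilp, and the early endosomal GTPase Rab5b. After the GC correction Tgfbrap1 (adjusted p = 0.0550, of 0.00782 to 0.116), Plekhm1 (0.0869, of 0.0142 to 0.0934) and Rilpl1 (0.0742, of 0.0163 to 0.120) no longer passed. Without control replicate 1, 2 or 3 or knockdown replicate 6 the 7 became 1, and 11 rose and 1 fell without knockdown replicate 4.

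The promoters of 4 members are printed here because these genes hold the largest rise (Snx8) and the tether core with and without a call (Vps33a, Vps18 and Vps16). For Vps11, the other core gene, no promoter was listed. The printed promoters run from 250 bases before to 50 bases after the annotated start, on the strand of the gene. They come from RefSeq on GRCm38.p6, which need not be the build of the deposited table. Capitals mark each E-box CACGTG, which reads the same on both strands and which basic helix-loop-helix factors of lysosomal genes such as Tfeb are known to bind.
Snx8, chr5:140389259-140389558 (- strand): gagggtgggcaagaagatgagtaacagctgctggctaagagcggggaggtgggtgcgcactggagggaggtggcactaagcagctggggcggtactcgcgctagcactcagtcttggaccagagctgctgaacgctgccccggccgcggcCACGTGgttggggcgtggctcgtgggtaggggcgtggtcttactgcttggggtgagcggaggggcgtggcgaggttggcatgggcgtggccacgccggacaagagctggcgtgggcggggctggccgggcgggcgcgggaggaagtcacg
Vps33a, chr5:123572966-123573265 (- strand): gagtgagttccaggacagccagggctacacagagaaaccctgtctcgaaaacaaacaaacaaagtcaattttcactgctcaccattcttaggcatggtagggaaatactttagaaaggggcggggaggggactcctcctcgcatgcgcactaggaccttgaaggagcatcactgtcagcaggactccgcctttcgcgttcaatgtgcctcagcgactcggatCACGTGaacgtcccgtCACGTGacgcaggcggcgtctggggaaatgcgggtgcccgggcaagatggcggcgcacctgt
Vps16, chr2:130424070-130424369 (+ strand): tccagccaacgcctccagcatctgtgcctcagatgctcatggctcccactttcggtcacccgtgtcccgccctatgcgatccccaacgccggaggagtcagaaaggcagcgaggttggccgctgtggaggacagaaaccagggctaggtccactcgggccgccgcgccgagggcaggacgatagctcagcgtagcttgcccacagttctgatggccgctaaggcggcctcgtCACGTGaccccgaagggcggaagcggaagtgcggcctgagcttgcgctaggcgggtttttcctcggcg
Vps18, chr2:119288492-119288791 (+ strand): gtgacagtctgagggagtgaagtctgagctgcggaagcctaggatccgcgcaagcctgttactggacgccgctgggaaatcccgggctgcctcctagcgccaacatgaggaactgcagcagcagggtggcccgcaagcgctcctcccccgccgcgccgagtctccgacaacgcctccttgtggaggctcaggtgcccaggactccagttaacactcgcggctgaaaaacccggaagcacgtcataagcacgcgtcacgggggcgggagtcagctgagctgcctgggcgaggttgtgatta
Vps33a held 2 copies, which begin at bases -28 and -12 relative to the start, Vps16 held 1 at -18, Snx8 held 1 at -100 and Vps18 held 0. Both copies in Vps33a and the copy in Vps16 lie within the longer palindrome TCACGTGA, which contains the E-box, while that in Snx8 does not. A promoter was listed for 48 of the 71 members, and 7 of the 48, or 14.6%, held an E-box, beside 12.3% of the 8442 tested genes with a promoter. The longer palindrome was found in 3 members (Vps16, Vps33a and Vps26a), or 6.25%, beside 2.49% of those genes. Of 10 members that rose and had a promoter, 2 held the E-box. These are matches of letters and no evidence of binding.

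Retriever, the recycling complex that works with the sorting nexin Snx17, consists of Vps26c, Vps35l and the shared subunit Vps29, and all 3 genes rose. Vps26c was at 32.8, 36.3 and 36.7 FPKM in the controls and 56.6, 45.8 and 51.1 in the knockdown (ratio 1.45, log2 0.52, SE 0.09, limma adjusted p = 0.0119). Vps35l, the scaffold, went from 37.9, 41.5 and 41.3 to 59.9, 48.8 and 52.6 FPKM (log2 0.41, SE 0.09, limma adjusted p = 0.0233). Vps29, which serves both retromer and retriever, went from 42.6, 43.5 and 43.7 to 54.2, 56.7 and 55.3 FPKM (log2 0.35, SE 0.05, limma adjusted p = 0.00773). The groups did not overlap for any of these genes, and for Vps29, whose transcript is at 42.8% GC, knockdown replicate 4 stood with the other 2 knockdown libraries.

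Vps35 and Vps26a, which belong to retromer and not to retriever, differed widely between the knockdown libraries. Vps35, the scaffold of retromer, was the most abundant of the set at 89.0, 83.2 and 86.8 FPKM in the controls, and stood at 81.0, 122 and 113 FPKM in knockdown replicates 4, 5 and 6. Vps26a, the arrestin-like subunit, was at 45.7, 44.1 and 44.7 FPKM against 37.9, 64.2 and 57.7. In both, knockdown replicate 4 lay below every control and the other 2 knockdown libraries above, and neither passed (log2 0.26 and 0.21, limma adjusted p = 0.245 and 0.431). Without knockdown replicate 4 the adjusted p was 0.00125 for Vps35 and 0.00155 for Vps26a, and after the GC correction 0.000793 and 0.0116, with log2 fold changes of 0.45 and 0.38; the alternatives ran from 0.000793 to 0.455 and from 0.00155 to 0.786. The paralog Vps26b was lower throughout, at 10.4, 10.2 and 10.4 FPKM against 12.5, 10.7 and 11.8, and did not pass (log2 0.16, limma adjusted p = 0.177; 0.395 after the GC correction).

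Of the retromer genes 1 rose in all 6 libraries, 3 without knockdown replicate 4 and 3 after the GC correction. Vps29 lost its call without control replicate 1 (adjusted p = 0.0546) or 3 (0.0538), within 0.00115 to 0.0546 over all alternatives. Both other retriever genes lost theirs without control replicate 1, 2 or 3 or knockdown replicate 6, with adjusted p of 0.0635, 0.0505, 0.0541 and 0.0543 for Vps26c (0.00320 to 0.0635) and 0.107, 0.0764, 0.0881 and 0.0783 for Vps35l (0.00621 to 0.107), which also missed it with median centring (0.0560). Of the Vps29 exon bases 5.53% overlap the gene Fam216a on the other strand in the GENCODE annotation, and of those of Vps35l 5.09% overlap Knop1. Whether the counting used strand is not given in the sources used here, so these reads cannot be told apart.

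Of 24 partners of retromer and retriever 5 (20.8%, beside 12.0%) rose and 0 fell; the median log2 fold change was 0.13. Of the 5, 3 belong to WASH, the complex that builds branched actin on endosomes at the call of retromer. The other 2 subunits of WASH, named here after their values were seen, did not pass: Washc4 (log2 -0.36, limma adjusted p = 0.344) and Washc3 (log2 -0.01, limma adjusted p = 0.953). Washc1, which activates actin nucleation, rose 1.55-fold, from 13.7, 15.2 and 14.8 to 25.2, 21.2 and 21.1 FPKM (log2 0.59, SE 0.09, limma adjusted p = 0.00740), also under all 16 alternatives. Washc5, the strumpellin subunit, rose 1.34-fold, and Washc2, the tail that binds Vps35, 1.39-fold. Commd9, of the COMMD complex that associates with retriever, rose 1.47-fold, and Rab7 was the last of the 5. The other COMMD genes, named here after their values were seen, did not pass. Their log2 fold changes ran from 0.02 (Commd8) to 0.21 (Commd6), with limma adjusted p from 0.144 (Commd3) to 0.919 (Commd8). The listed partners Ccdc22, Ccdc93 and Dennd10 did not pass either. Without control replicate 1, 2 or 3 the 5 became 1, 3 and 2, and 3 without knockdown replicate 6. Of 15 cargo receptors tested, 3 (20%, beside 12.0% of all tested genes) rose and 2 (13.3%, beside 5.89%) fell. The others did not pass, and 1 of the 3 is not reported here. Among the cargo receptors, Sort1, the sortilin receptor that retromer returns to the Golgi, rose 2.27-fold, from 2.52, 2.55 and 2.51 to 6.00, 6.02 and 5.18 FPKM (log2 0.93, SE 0.08, limma adjusted p = 0.00132; at most 0.0162 over its 15 alternatives). Slc2a1, a glucose transporter, rose 1.20-fold (limma adjusted p = 0.0424, 0.0130 to 0.168 over its alternatives). Tfrc, the transferrin receptor, fell from 35.9, 30.8 and 33.5 to 13.96, 23.8 and 21.1 FPKM (limma adjusted p = 0.0310, 0.00102 to 0.124), and the integrin gene Itgb3 fell to 0.736 of its control mean (limma adjusted p = 0.00721, 0.00141 to 0.0510). In none of these 4, which were picked by a test on the same values, did the groups overlap. Leaving out control replicate 1, 2 or 3 or knockdown replicate 6 ended the calls of Slc2a1 (0.168, 0.132, 0.137 and 0.0967) and Tfrc (0.124, 0.0829, 0.112 and 0.0761), and leaving out control replicate 1 or 3 that of Itgb3 (0.0510 and 0.0509). Slc2a1 passed under 6 of 16 alternatives, and not after the GC correction (0.0545); Tfrc passed under 10.

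**Figure D3:**
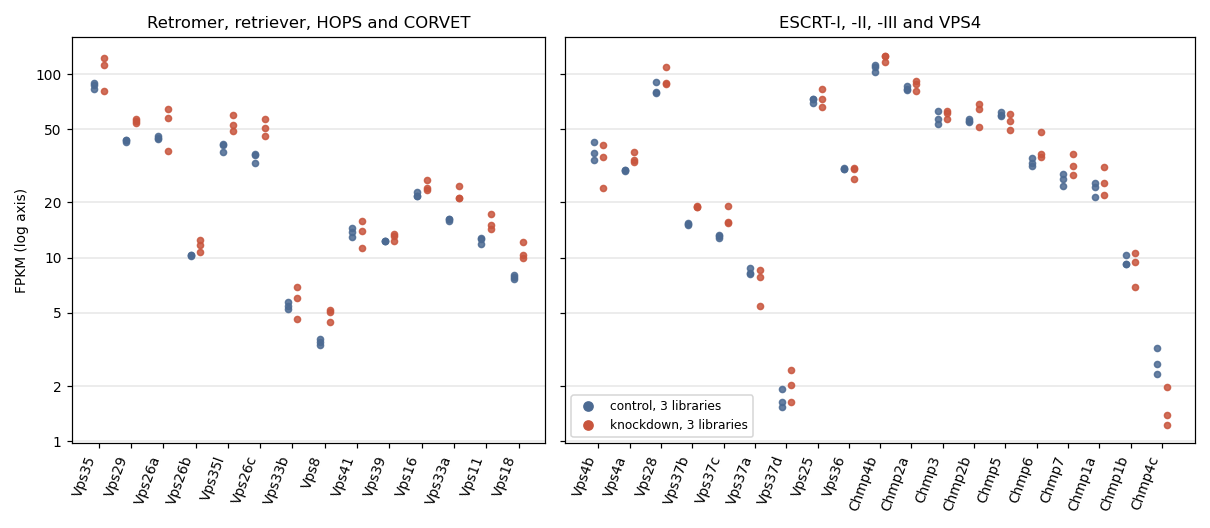
FPKM of each library on a log axis (y axis) for the subunits of retromer, retriever, HOPS and CORVET (left) and of ESCRT-I, ESCRT-II, ESCRT-III and VPS4 (right), with 3 control libraries in blue and 3 knockdown libraries in red. The knockdown points of Vps29, Vps26c, Vps35l, Vps33a, Vps18, Vps11 and Vps8 all lie above the control points, and those of Chmp4c below. Vps33b, which works outside HOPS, is drawn with HOPS and CORVET.

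Most ESCRT genes did not pass, as was the case for all tested genes. Of the 19, 10.5% rose, beside 12.0% of all tested genes, and 5.26% fell, beside 5.89%. ESCRT-I sorts ubiquitinated cargo with one of 4 alternative Vps37 subunits, and 2 of these rose while Vps28, the common subunit, did not pass at 80.3, 90.5 and 78.8 against 109, 89.3 and 87.9 FPKM (log2 0.19, limma adjusted p = 0.227). Vps37b was at 15.1, 15.3 and 15.5 FPKM in the controls and at 19.0, 18.8 and 19.2 in the knockdown, with all 3 above the controls (log2 0.30, SE 0.06, limma adjusted p = 0.0158). Of its exon bases 32.9% overlap Hip1r and 16.0% Gm37939, both on the other strand, and without a stated strand these reads cannot be told apart. Vps37c went from 13.2, 12.8 and 13.1 to 19.1, 15.4 and 15.7 FPKM (log2 0.33, SE 0.09, limma adjusted p = 0.0486). Vps37a was at 8.84, 8.20 and 8.29 against 5.48, 8.58 and 7.86 FPKM (log2 -0.20, limma adjusted p = 0.352). After the GC correction its log2 fold change was 0.07 and its adjusted p 0.409, and those of Vps37b and Vps37c were no longer called (adjusted p = 0.191 and 0.0530, the alternatives running from 0.00495 to 0.191 and from 0.0143 to 0.157). Vps37d, at a mean of 1.87 FPKM, was the lowest of all members.

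ESCRT-III forms the filaments that cut the neck of the inner vesicle, and 9 of its 10 measured genes did not pass. Chmp4b, its main filament subunit, was the most abundant of all 71 members, at 103, 109 and 112 FPKM in the controls and 125, 126 and 116 in the knockdown (log2 0.18, limma adjusted p = 0.101), with no overlap between the groups. Its paralog Chmp4c, known for delaying the last cut of cell division, was far lower, at 2.32, 3.24 and 2.64 FPKM in the controls and 1.40, 1.98 and 1.23 in the knockdown, and fell (ratio 0.562, log2 -0.56, SE 0.14, limma adjusted p = 0.0379). All 3 knockdown values of Chmp4c lay under the controls. The call ended when control replicate 1, 2 or 3 or knockdown replicate 6 was left out (adjusted p = 0.0792, 0.124, 0.122 and 0.122), with no filter (0.0632) or with TPM (0.0516), the range being 0.0160 to 0.124. Of its exon bases 3.27% overlap Snx16 on the other strand.

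Chmp2b, an ESCRT-III subunit that recruits Vps4, was at 55.8, 57.3 and 55.0 against 51.4, 64.9 and 68.9 FPKM (log2 0.13, limma adjusted p = 0.437). It passed at an adjusted p of 0.00787 without knockdown replicate 4 and 0.0185 after the GC correction, within a range of 0.00787 to 0.810. The ATPases Vps4a and Vps4b take the filaments apart, and neither passed with all 6 libraries. Vps4a was at 30.01, 30.2 and 29.8 against 37.8, 33.2 and 34.1 FPKM, all knockdown values above the controls (log2 0.21, limma adjusted p = 0.0698). It passed without knockdown replicate 4 (adjusted p = 0.0360) or 5 (0.0483) and with TPM (0.0397), the range being 0.0360 to 0.219. Vps4b was at 42.7, 34.2 and 37.1 against 23.9, 41.1 and 35.5 FPKM, with knockdown replicate 4 the lowest (log2 -0.20, limma adjusted p = 0.473). The ESCRT-II genes Vps25 and Vps36 had log2 fold changes of 0.04 and -0.05, and 67.2% of the exon bases of Vps25 overlap Ramp2 on the same strand in the annotation. Leaving out any 1 control or knockdown replicate 6 ended all 3 ESCRT calls, and 4 ESCRT genes rose without knockdown replicate 4 or 5.

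Of 26 ESCRT partners tested 4 (15.4%, beside 12.0% of all tested genes) rose and 0 fell; the median log2 fold change was 0.13. Cc2d1b, a regulator that binds the Chmp4 proteins, rose 1.74-fold, from 17.2, 15.5 and 15.9 to 29.9, 26.0 and 28.6 FPKM (log2 0.76, SE 0.08, limma adjusted p = 0.00206), and passed under all 16 alternatives. Ptpn23, the phosphatase-like protein that helps ESCRT on endosomes, rose 1.36-fold, the ubiquitin ligase Nedd4l 1.25-fold and the ESCRT-I subunit Ubap1 1.22-fold. Without control replicate 1, 2 or 3 the 4 became 1, without knockdown replicate 6 they became 2, and 7 rose and 1 fell without knockdown replicate 4. Leaving out knockdown replicate 5 gave 6 higher and 2 lower, and the GC correction gave 7 higher and 2 lower.

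Among the sorting nexins 4 of 26 rose and 0 fell. Snx8, an endosomal nexin with a membrane-bending BAR domain, had the largest log2 fold change of the 71 members. It was at 20.2, 20.5 and 20.6 FPKM in the controls and 43.3, 34.7 and 34.1 in the knockdown (1.83-fold, log2 0.84, SE 0.10, limma adjusted p = 0.00340). It was the only member that passed under all 16 alternatives, with adjusted p from 7.75e-05 to 0.0270, and its log2 fold change was 0.67 after the GC correction. Snx33, with an SH3 domain before PX and BAR and a part in endocytosis, went from 9.13, 8.78 and 8.64 to 12.7, 11.8 and 12.2 FPKM (log2 0.43, SE 0.07, limma adjusted p = 0.00775); it missed the threshold only without control replicate 3 (adjusted p = 0.0547), of a range from 0.00264. Its relatives Snx18 (log2 0.21, limma adjusted p = 0.0738) and Snx9 (log2 -0.04, limma adjusted p = 0.614) did not pass; without knockdown replicate 4 Snx18 did (adjusted p = 0.0134, of 0.0134 to 0.301).

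Snx30, a BAR nexin that pairs with Snx4, was at 9.06, 8.22 and 8.03 FPKM in the controls and 10.03, 14.8 and 13.4 in the knockdown, replicate 4 being nearest to the controls (log2 0.53, SE 0.14, limma adjusted p = 0.0411). Snx3, a small PX protein that takes retromer to Wls cargo, went from 90.5, 94.6 and 96.5 to 117, 110.1 and 108 FPKM (log2 0.25, SE 0.06, limma adjusted p = 0.0334). The call of Snx30 was lost without control replicate 1, 2 or 3 (adjusted p = 0.107, 0.128 and 0.148), without knockdown replicate 5 or 6 (0.0548 and 0.131), with no filter (0.0723) and with TPM (0.108), its range being 0.000775 to 0.148. That of Snx3 was lost without control replicate 1, 2 or 3 (0.153, 0.114 and 0.113) or knockdown replicate 6 (0.0862), with median centring (0.0959) or trimmed mean of M values (0.0594) and after the GC correction (0.0644), its range being 0.0131 to 0.153. In all, the 4 nexins that rose became 2, 2 and 1 without control replicates 1, 2 and 3, and 6, 3 and 2 without knockdown replicates 4, 5 and 6.

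The BAR nexins Snx1, Snx2, Snx5 and Snx6, which form the tubules that carry receptors to the Golgi, contained no gene that passed. Snx5, the second most abundant member, was at 129, 119 and 127 FPKM in the controls and 72.6, 107 and 96.4 in the knockdown, all below the controls (ratio 0.734, log2 -0.46, SE 0.14, limma adjusted p = 0.0605). It passed as lower after the GC correction (log2 -0.37, adjusted p = 0.00616), after trimmed mean of M values scaling (0.0484), after median centring (0.0355) and without knockdown replicate 4 (0.00942) or 5 (0.0221), the range being 0.00616 to 0.191. In the authors' deposited table Snx5 has a log2 ratio of -0.47 and q = 0.0114. Snx6, its close relative, was at 98.8, 97.6 and 95.9 against 69.7, 92.7 and 80.3 FPKM, again with no overlap (log2 -0.27, limma adjusted p = 0.109). Snx6 passed only without knockdown replicate 5 (adjusted p = 0.0216, of 0.0216 to 0.278). Their partners overlapped between the groups, Snx1 at 52.6, 55.3 and 52.8 against 60.8, 50.6 and 53.5 FPKM and Snx2 at 56.4, 52.3 and 55.6 against 39.0, 60.5 and 52.2. Snx4 was the other nexin below its controls in every knockdown library (28.1, 31.0 and 32.8 against 37.7, 35.5 and 35.5 FPKM, log2 -0.24, limma adjusted p = 0.0696). It passed as lower without knockdown replicate 4 (adjusted p = 0.0419), after median centring (0.0467) and with quantiles (0.0365), the range being 0.0365 to 0.308.

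The cargo adaptors with a FERM domain did not pass. Snx17, which hands integrins and other cargo to retriever, was at 98.5, 103 and 98.0 against 130.1, 98.3 and 102 FPKM, so that only knockdown replicate 4 stood out (log2 0.13, limma adjusted p = 0.418; log2 -0.00086 after the GC correction). Snx27, the adaptor of retromer for PDZ ligands, was at 19.0, 19.6 and 19.5 against 17.4, 20.6 and 19.8 FPKM (log2 -0.01, limma adjusted p = 0.931). The nexins with a PXA domain, Snx13, Snx14, Snx19 and Snx25, had log2 fold changes from -0.30 to 0.13, and Snx13 was at 4.94 FPKM in knockdown replicate 4 against 11.9 and 8.84 in the other 2. Snx24, a small PX protein, was at 27.4, 23.0 and 23.7 against 26.3, 34.5 and 29.9 FPKM (log2 0.28, limma adjusted p = 0.135). It passed without knockdown replicate 4 (adjusted p = 0.0187) and after the GC correction (0.0318), the range being 0.0187 to 0.326.

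**Figure D4:**
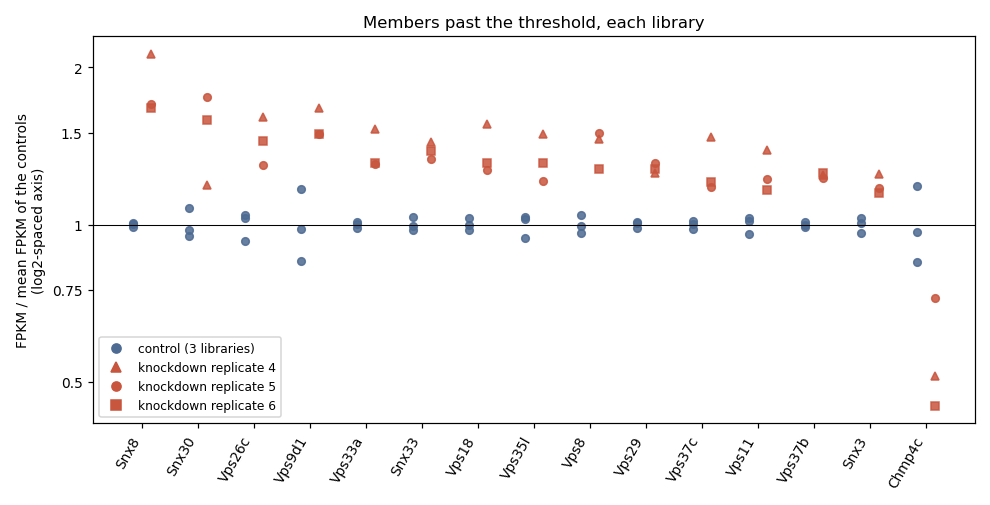
FPKM of each library divided by the mean FPKM of the 3 controls (y axis, spaced by log2) for the 15 members past the threshold (x axis), with controls in blue and knockdown replicates 4, 5 and 6 as red triangles, circles and squares. All knockdown points of 14 members lie above the controls and all those of Chmp4c below, and knockdown replicate 4 is the highest for Snx8 and the lowest of the knockdown for Snx30. The members shown were picked by a test on these same values.

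Of the remaining 12 Vps genes, 1 rose. Vps9d1, which carries the VPS9 domain of Rab5 exchange factors, went from 1.93, 2.65 and 2.23 to 3.80, 3.38 and 3.39 FPKM (ratio 1.55, log2 0.47, SE 0.10, limma adjusted p = 0.0241); it lost the call without control replicate 1 (0.0981) or 3 (0.101) or knockdown replicate 6 (0.0755), its range being 0.0198 to 0.101. The GARP and EARP genes Vps50, Vps51, Vps52, Vps53 and Vps54, tethers of endosome-derived vesicles, had overlapping groups and log2 fold changes from -0.20 to 0.13. Vps50, the EARP subunit, was at 16.7, 14.3 and 16.6 against 11.6, 19.8 and 18.5 FPKM, and passed as higher without knockdown replicate 4 (log2 0.26, adjusted p = 0.0427, of 0.0427 to 0.9996). Of their 10 partners 2 (20%, beside 12.0%) rose, the SNARE genes Stx6 (1.23-fold) and Vti1a (1.27-fold), and 0 did so without control replicate 1, 2 or 3 or knockdown replicate 6. The median log2 fold change of the 10 was below 0, at -0.048, and 0 of them fell. Without knockdown replicate 4 or 5, 2 rose and 1 fell. The VPS13 genes, which encode bridges for lipid transfer between membranes, overlapped as well, from Vps13c (log2 -0.01) to Vps13a. Vps13a was at 5.90, 4.84 and 4.79 against 1.92, 5.24 and 3.68 FPKM, with the lowest value in knockdown replicate 4 (log2 -0.48, SE 0.26, limma adjusted p = 0.228; log2 -0.22 after the GC correction). Vps45, a Sec1/Munc18 protein of early endosomes, had a log2 fold change of 0.13. Vps72 matches the symbol rule but encodes a chromatin protein, and was at 27.8, 31.3 and 33.1 against 44.1, 34.2 and 34.9 FPKM (log2 0.28, limma adjusted p = 0.132).

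Of 19 enzymes and regulators of endosomal phosphoinositides, the lipids that sorting nexins bind, 6 (31.6%, beside 12.0%) rose and 0 fell. They include Uvrag (1.45-fold) and Rubcn (1.30-fold) of the Vps34 kinase complexes, Vac14 (1.39-fold) of the PIKfyve complex, the phosphatase Pip4p1 (1.37-fold) and the myotubularins Mtmr3 and Mtmr4. Pip4p1 passed under all 16 alternatives, and Mtmr3 missed the threshold after the GC correction (adjusted p = 0.0528, of 0.00861 to 0.114). The 6 became 2 without control replicate 1, 2 or 3 or knockdown replicate 6. After the GC correction 6 rose and 2 fell, and the counts were the same without knockdown replicate 4 or 5. The genes were not all the same, since after the GC correction Pip4p2 (adjusted p = 0.0239) passed and Mtmr3 did not. Those that fell in these fits were Inpp4b and Ocrl. Over all 121 partner genes tested, each counted once, 26 (21.5%, beside 12.0% of all tested genes) rose and 2 (1.65%, beside 5.89%) fell, a median log2 fold change of 0.13.

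Members differed widely in level. Mean FPKM over the 6 libraries ran from 1.87 for Vps37d and 2.10 for Vps13d, just inside the minimum, to 115 for Chmp4b, 109 for Snx5 and 105 for Snx17, and 41 of the 71 lay above the median of all tested genes, 15.5 FPKM. Just outside were Snx32, at 0.88, 0.87, 0.61, 0.74, 0.64 and 0.49 FPKM in libraries 1 to 6, and Snx22, at a mean of 0.205 FPKM, and Snx20 was lower still at 0.157. On this scale, which is per transcript length, Vps26a exceeded its paralog Vps26b in every library, as Chmp4b did Chmp4c. The 56 members that did not pass had log2 fold changes from -0.48 (Vps13a) to 0.28 (Vps72).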

How the data were processed

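Polyadenylated RNA of 6 bEnd.3 libraries was sequenced from DNA nanoballs, per the labels' protocols. The authors deposited 1 table of FPKM values, rounded to 2 decimals. They also deposited the log2 ratio of the groups with its p-value and q-value. The aligner, counting program, build, annotation, strandedness and test were not given in the sources used here. Symbols were read without quotes, and columns were mapped by library name.

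Genes averaging 1 FPKM or more were compared as log2(FPKM + 1) with limma 3.58.1 in R 4.3.3 (two-sided, empirical Bayes with an intensity trend, Benjamini-Hochberg adjustment over 10400 genes, threshold 0.05). Fold changes on this scale understate those of low genes; ratios are of mean FPKM. The procedure was also run on simulated data with independent noise and without the GC shift of knockdown replicate 4. That run cannot show whether the calls made here are sound. GC content came from the longest coding transcript in GENCODE M21 and was known for 98.5% of tested genes. To look for whole reads, FPKM values of 0.03 to 0.6 were multiplied by transcript length; the most common product fell in the bin of 0.06 to 0.08 in each library, and whole reads were not recovered.

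The members, complexes, partner lists, markers and alternatives were chosen with earlier results of these data known. Any member could be named; partners were named where past the threshold (1 partner result is not reported here), and Snx20, Snx22 and Snx32 for their level. Near-identical copies, such as processed pseudogenes, could share reads with members. Alternatives were a filter of 5 FPKM or none, a pseudocount of 0.1, TPM, median, trimmed mean of M values or quantile scaling, limma without trend or with robust estimation, a GC spline with 5 degrees of freedom, and each library left out.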

Additional observations from a re-analysis of the deposited data

How the results depend on the processing

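No called member reversed direction under the 16 alternatives, and only Snx8 passed in all of them. Members that rose numbered 14 with all libraries and 1 to 21 with 1 library left out; members that fell numbered 1, and 0 to 4. The latter count was 0 with no filter, 0 with a mean of at least 5 FPKM, 0 with TPM, 3 after median centring, 2 after trimmed mean of M values, 2 after quantile normalization and 2 after the GC correction; members that rose were 11, 12, 14, 10, 11, 12 and 15 there. Partner genes that rose numbered 26, and 7 to 40 with 1 library left out; those that fell numbered 2, and 0 to 8, with 1 for no filter, 1 for TPM, 7 after median centring, 5 after trimmed mean of M values, 6 after quantile normalization and 6 after the GC correction. Every left-out library lowers the residual degrees of freedom. The share of all tested genes called under each alternative was not counted, so these counts show nothing particular to members or partners. Npc1 passed under every alternative run on it. No paired analysis was possible because the controls are numbered 1 to 3 and the knockdown libraries 4 to 6, with no number in common. With 3 libraries a group and no read counts, small differences of low genes cannot be resolved.

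Members that changed sign under an alternative were uncalled in the fit of all libraries, and their log2 fold changes were as follows. After the GC correction Vps4b (0.0024), Vps37a (0.066), Vps37d (-0.073), Vps25 (-0.077), Vps36 (0.0021), Chmp1a (-0.018), Chmp1b (0.15), Chmp2a (-0.063), Chmp5 (0.0067), Vps33b (-0.020), Vps39 (-0.0062), Vps41 (0.093), Vps51 (-0.057), Vps52 (-0.023), Vps54 (0.053), Vps13c (0.049), Snx10 (0.16), Snx15 (-0.065), Snx16 (0.24), Snx29 (-0.0057), Snx19 (-0.029), Snx1 (-0.032), Snx2 (0.038), Snx7 (0.070) and Snx17 (-0.00086) changed sign. The others were, after median centring Snx14 (-0.0060), after quantile normalization Vps25 (-0.033), Vps13c (0.014), Snx16 (0.0017) and Snx1 (-0.020), and after trimmed mean of M values scaling Snx14 (-0.013) and Snx1 (-0.0018). With 1 library left out, the log2 fold change crossed 0 for Vps4b from -0.37 to 0.014, Vps25 from -0.047 to 0.11, Vps36 from -0.086 to 0.0092, Chmp1b from -0.22 to 0.059, Vps33b from -0.041 to 0.20, Vps41 from -0.11 to 0.11, Vps50 from -0.10 to 0.26, Vps51 from -0.0038 to 0.24, Vps54 from -0.42 to 0.073, Vps13b from -0.24 to 0.056, Vps13c from -0.11 to 0.14, Snx10 from -0.18 to 0.17, Snx16 from -0.090 to 0.081, Snx13 from -0.55 to 0.011, Snx14 from -0.10 to 0.17, Snx1 from -0.040 to 0.090, Snx2 from -0.27 to 0.037 and Snx27 from -0.058 to 0.056. The cause was not tested.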
